A study of Mus musculus with 5 samples.

Results

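Bax, Bbc3, Pmaip1, Fas, Tnfrsf10b, Eda2r, Perp, Aen, Zmat3 and Phlda3 are targets of the transcription factor p53 whose products promote cell death. They were taken by symbol from the deposited gene table, in which each of the 10 has a single row, out of 23725 rows that name a gene. The RNA came from mouse embryo forelimbs taken at E11.5 (47 to 48 somites) of a mixed C57BL/6 and Swiss Webster strain. There were 2 Prmt5cKO samples, of genotype Prx1Cre+/-;Prmt5c/c, and 3 Control samples, whose alleles the labels do not give beyond the word control; the submitters call all of them biological replicates. Prx1Cre is a recombinase driven by a Prx1 (Prrx1) enhancer that is active in limb bud mesenchyme, so the ectoderm, blood, vessel and muscle cells of the Prmt5cKO limb are largely outside its reach. The table gives 1 FPKM value per gene and genotype (fragment counts divided by transcript length and by the library's mapped total), combined by the authors over the replicates. Values per sample, SDs and library depths are therefore not shown: the tables used here hold none of them.

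p53 is kept low in unstressed cells by the ubiquitin ligase Mdm2 and accumulates after DNA damage and other stress. Its death-promoting targets act at several points: BCL2 family proteins open the outer membrane of the mitochondrion, death receptors at the cell surface recruit caspases, and further targets weaken survival signals or act in the nucleus. Programmed cell death is part of normal limb development, where it later shapes the digits. Prmt5, the gene deleted in the mutant, makes an enzyme that methylates arginines in histones and in proteins of the splicing machinery.

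Of the 10 genes, 9 were higher in Prmt5cKO forelimbs, and Perp, at nearly equal values, missed the threshold. A gene was counted as changed where its mean over the genotypes was at least 1 FPKM and its q-value (an adjusted p-value) per the authors' deposited table was under 0.05. By that rule 4.90% of 11190 tested rows rose and 19.3% fell. All 9 rises were at least 2-fold, which held for 0.608% of the tested rows. The median log2 fold change of the 10 genes was 1.45, against -0.13 over all tested rows, both from the authors' deposited table. These genes were chosen with earlier results of the same data known, so their count describes them and tests nothing. Fas and Eda2r reached a mean of 1 FPKM only through their Prmt5cKO value; with no minimum level the count was the same, 9 of 10, beside 3.51% of the rows tested at any level. Sex-linked transcripts and macrophage markers also differed between the genotypes, with the values given further on.

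**Figure D1:**
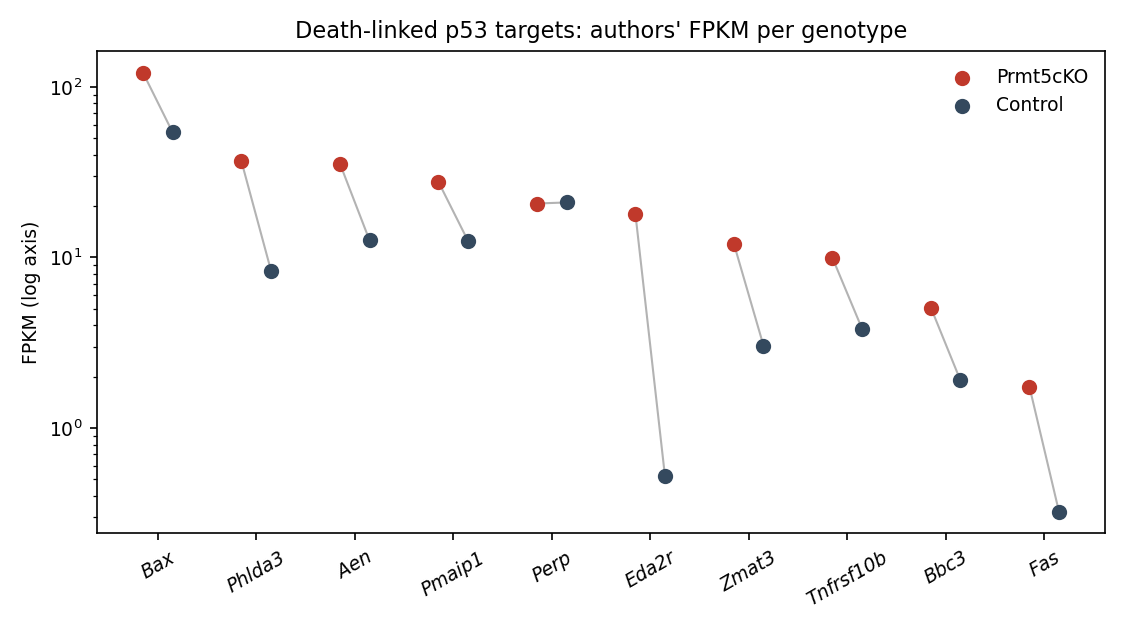
FPKM of the 10 genes on a log axis, with 1 point per genotype (Prmt5cKO left, Control right, joined by a line) as combined by the authors, ordered by the Prmt5cKO value. The lines slope down to Control for 9 genes, most steeply for Eda2r (17.9 FPKM in Prmt5cKO and 0.520 in Control), and lie flat for Perp.

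Where promoter sequence was at hand, it was searched for the letters that p53 prefers. RefSeq windows on GRCm38.p6, from 250 bases before to 50 bases after a transcription start, matched 6 of the 10 genes (Bax, Bbc3, Fas, Eda2r, Aen and Phlda3). The p53 consensus is a half-site of 10 bases that reads the same on both strands, and a pair of adjoining half-sites makes the full element of 20 bases. Windows of Bax, Bbc3 and Aen hold a pair with 3 mismatches to the consensus, a limit set after the windows had been read. Across all genes with a window 7.20% hold a pair with at most 3 mismatches, and the median window's best pair has 5. The best pairs had 5 mismatches in Fas, 5 in Phlda3 and 6 in Eda2r. All 6 genes with a window rose, so the rise does not set Bax, Bbc3 and Aen apart from Fas, Phlda3 and Eda2r. For Bax, Bbc3 and Aen a window that holds a pair with 3 mismatches is shown, with the pair in capitals. The window of Eda2r, the gene with the largest fold, is shown as well. Its TATAA and the overlapping TTATA, the same letters on the other strand, are in capitals.
Bax, chr7:45466849-45467148, minus strand: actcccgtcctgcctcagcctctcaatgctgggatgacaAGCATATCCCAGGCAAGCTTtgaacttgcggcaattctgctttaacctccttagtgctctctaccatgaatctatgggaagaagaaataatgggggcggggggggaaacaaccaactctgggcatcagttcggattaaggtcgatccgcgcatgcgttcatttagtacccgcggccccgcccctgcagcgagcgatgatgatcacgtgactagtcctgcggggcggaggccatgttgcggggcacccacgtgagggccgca
Bbc3, chr7:16309333-16309632, plus strand: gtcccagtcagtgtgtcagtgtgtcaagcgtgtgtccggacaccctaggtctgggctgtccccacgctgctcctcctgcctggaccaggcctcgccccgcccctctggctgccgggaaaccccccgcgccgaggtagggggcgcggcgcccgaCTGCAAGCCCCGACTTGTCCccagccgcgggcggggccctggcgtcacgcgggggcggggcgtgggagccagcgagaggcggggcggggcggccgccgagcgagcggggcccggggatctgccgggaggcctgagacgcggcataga
Aen, chr7:78895808-78896107, plus strand: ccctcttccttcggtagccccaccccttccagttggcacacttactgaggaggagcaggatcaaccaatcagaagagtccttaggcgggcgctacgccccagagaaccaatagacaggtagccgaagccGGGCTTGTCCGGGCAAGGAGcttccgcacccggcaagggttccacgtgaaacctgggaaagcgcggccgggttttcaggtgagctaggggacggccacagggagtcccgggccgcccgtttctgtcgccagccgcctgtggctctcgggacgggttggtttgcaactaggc
Eda2r, chrX:97377160-97377459, minus strand: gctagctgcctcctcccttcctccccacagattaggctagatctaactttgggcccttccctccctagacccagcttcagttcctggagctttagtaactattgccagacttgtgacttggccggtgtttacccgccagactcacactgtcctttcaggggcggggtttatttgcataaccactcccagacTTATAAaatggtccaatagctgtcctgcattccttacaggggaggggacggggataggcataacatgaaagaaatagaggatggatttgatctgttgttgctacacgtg

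The pair begins at position -211 in Bax, -97 in Bbc3 and -121 in the Aen window shown, counted from the transcription start at 0. In the other Aen window the same pair begins at position 10, past the transcription start of that window. An exact half-site is part of the pair in Bax and Aen. Exact half-sites occur in 8.36% of all 32851 windows. Bbc3 has 3 windows, of which 1 holds the pair, and both windows of Aen overlap and contain the same pair. TATAA on either strand occurs in 24.9% of windows and, among the 6 genes, in that of Eda2r alone. The Eda2r window is also poorer in C and G than those of the other 5 genes, at 50.3% against 57.3% to 78.0%, and the median over all windows is 52.7%. A match of letters does not show that p53 binds there, and the lack of a match says nothing of the parts of the gene outside the window.

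The mitochondrial branch was represented by Bax, Bbc3 and Pmaip1. Bax, which forms pores in the outer mitochondrial membrane, is located on chromosome 7 (45461697 to 45466898, minus strand). Gene coordinates are those of GENCODE M21 on GRCm38, the mm10 assembly named in the submitters' processing notes. Bax stood at 121 FPKM in Prmt5cKO and 54.2 FPKM in Control. The authors' deposited table lists a log2 fold change of 1.16 for it, and a q of 0. Bax had the highest level of the 10 in both genotypes and made up 39.3% of their summed gain in FPKM. The annotated gene Gm45808 overlaps Bax on the same strand and was not analysed here, so how reads of the overlap were assigned is unknown. Bbc3 encodes PUMA, a BH3-only protein that neutralises the pro-survival members of the family, and is located on chromosome 7 (16308393 to 16318205, plus strand). It was scarce, at 5.07 FPKM in Prmt5cKO and 1.90 FPKM in Control, a log2 fold change of 1.41 (q = 2.35e-07) per the authors' deposited table. Pmaip1 encodes NOXA, a BH3-only protein that binds Mcl1, and is located on chromosome 18 (66458533 to 66465565, plus strand). It stood at 27.7 FPKM in Prmt5cKO and 12.5 FPKM in Control, a log2 fold change of 1.15 (q = 3.87e-13) per the authors' deposited table. The folds of Bax and Pmaip1 were thus nearly equal, although Bax was the more abundant transcript in both genotypes.

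The rest of the BCL2 family was counted beside them. Among its other pro-death members, 7 of 8 were measured at a mean of at least 1 FPKM, of which none rose, 2 fell and 5 missed the threshold. Beside the 4.90% of all tested rows that rose, a count of 0 among so few genes is near the background. Bmf, a BH3-only protein, fell to 9.80 FPKM in Prmt5cKO, against 19.5 in Control, and Bad, another of that class, fell to 13.8 FPKM in Prmt5cKO, against 22.3 in Control. Their log2 fold changes per the authors' deposited table were -0.99 and -0.69. Bak1, the other pore-forming protein of most tissues, was at 21.0 FPKM in Prmt5cKO and 19.6 FPKM in Control, and its relative Bok was at 11.4 FPKM in Prmt5cKO and 10.4 FPKM in Control. The BH3-only genes Bcl2l11, Bid and Bik had log2 fold changes of 0.06, 0.05 and -0.48 per the authors' deposited table and missed the threshold, and Hrk was below the minimum level. Of the pro-survival genes Bcl2 and Mcl1 missed the threshold, with log2 fold changes of 0.05 and 0.04 per the authors' deposited table. Bcl2l1, which encodes BCL-XL, had no test by the authors and was at 28.8 FPKM in Prmt5cKO and 35.8 FPKM in Control. Bcl2a1a, Bcl2a1b and Bcl2a1d were below the minimum level, and Bcl2l2 shares its row with another gene and was not counted. FPKM is scaled by length, so levels of different genes were set side by side, as a rough comparison that leaves out Bcl2l2. Bax was at 1.16 times the sum of Bcl2, Bcl2l1 and Mcl1 in Prmt5cKO and at 0.499 times that sum in Control. These 3 genes summed to 104 FPKM in Prmt5cKO and 109 FPKM in Control, so most of the difference in the ratio came from Bax. These are transcript levels of a whole limb, in which fewer cells of a type and less RNA per cell cannot be told apart.

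Fas, Tnfrsf10b and Eda2r encode receptors of the TNF receptor superfamily. Fas, the receptor of Fas ligand, is located on chromosome 19 (34290666 to 34327772, plus strand). It was the least abundant of the 10 in both genotypes, at 1.75 FPKM in Prmt5cKO and 0.324 FPKM in Control. Its log2 fold change of 2.43 had the largest q among the 9 rises, 0.0203 per the authors' deposited table, and Fas was the gene lost at a q under 0.01. With a pseudocount of 1 FPKM its log2 ratio was 1.05. The annotated gene Gm27818 overlaps Fas on the same strand and was not analysed here. Tnfrsf10b, the mouse receptor of TRAIL, is located on chromosome 14 (69767472 to 69784411, plus strand). It reached 9.94 FPKM in Prmt5cKO, against 3.83 FPKM in Control, a log2 fold change of 1.37 with q listed as 0, per the authors' deposited table.

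Eda2r, the receptor of the A2 form of ectodysplasin, has no death domain, unlike Fas and Tnfrsf10b. It is located on the X chromosome (97333840 to 97377216, minus strand). Eda2r was at 17.9 FPKM in Prmt5cKO and 0.520 FPKM in Control, a ratio of 34.4. The size of this ratio rests on the low Control value, and the log2 ratio was 3.64 with a pseudocount of 1 FPKM. With a log2 fold change of 5.11 per the authors' deposited table it was at rank 6 of 11190 tested rows. Sex-linked transcripts stood apart between the genotypes as well. Xist, made from the inactive X, was at 0.392 FPKM in Prmt5cKO and 87.3 FPKM in Control. The Y-linked Ddx3y, Kdm5d, Uty and Eif2s3y were at 12.5 to 21.8 FPKM in Prmt5cKO and below 0.1 FPKM in Control. Genotype and embryo sex therefore cannot be told apart for the genes described here. For X-linked genes as a class the median log2 fold change was -0.16 over 341 tested genes, of which 2.93% rose, beside -0.13 over 9783 autosomal genes, of which 4.80% rose, per the authors' deposited table. Eda2r had the largest fold among these X-linked genes. The next, Gria3, chosen after its values were seen, was at 3.50 FPKM in Prmt5cKO and 1.29 FPKM in Control.

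Ligands, adaptors and other receptors of these pathways were counted as a list. Of 21 listed genes 15 were measured, with 1 rise, 1 fall, 12 not past the threshold and 1 (Traf3) not tested, and a median log2 fold change of -0.07 per the authors' deposited table. With 4.90% of all tested rows rising and 19.3% falling, these counts do not stand apart from the table. The ligand genes Fasl, Tnfsf10 (TRAIL) and Tnf were below 1 FPKM, at no more than 0.0637 FPKM in Prmt5cKO and 0.101 FPKM in Control. Eda, the ligand gene of Eda2r, was at 1.02 FPKM in Prmt5cKO and 1.37 FPKM in Control without passing (q = 0.201, per the authors' deposited table). Edar, the related receptor of the A1 form in surface ectoderm, rose to 3.12 FPKM in Prmt5cKO, against 2.22 in Control. The rise of Edar was 0.49 on the log2 scale with q = 0.0205 per the authors' deposited table. Cflar, a catalytically inactive relative of caspase-8 that blocks death receptor signalling, fell by 0.43 (log2) per the authors' deposited table. The adaptor gene Tradd was at 2.66 FPKM in Prmt5cKO and 4.09 FPKM in Control and missed the threshold.

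Aen, Zmat3 and Phlda3 act inside the cell by other routes. Aen, a nuclease that degrades nucleic acids in dying cells, is located on chromosome 7 (78895854 to 78911209, plus strand). It was at 35.4 FPKM in Prmt5cKO and 12.6 FPKM in Control, with a log2 fold change of 1.5 per the authors' deposited table. Zmat3, a zinc finger protein that binds RNA, is located on chromosome 3 (32334792 to 32366014, minus strand). It was at 12.0 FPKM in Prmt5cKO and 3.04 FPKM in Control, with a log2 fold change of 1.98 per the authors' deposited table. Phlda3, a small protein with a pleckstrin homology domain that competes with the survival kinase Akt for membrane lipids, is located on chromosome 1 (135766119 to 135769136, plus strand). It was at 36.5 FPKM in Prmt5cKO and 8.36 FPKM in Control, with a log2 fold change of 2.13 per the authors' deposited table. All 3 had a q listed as 0 per the authors' deposited table, and Phlda3 had the second-highest level of the 10 in Prmt5cKO.

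None of the measured relatives of these 3 genes passed the threshold. With 4.90% of all tested rows rising and 19.3% falling, this does not set so few genes apart from the table. Phlda1 was at 2.75 FPKM in Prmt5cKO and 3.56 FPKM in Control, and Phlda2 at 2.23 FPKM in Prmt5cKO and 2.89 FPKM in Control. Zmat2 and Zmat5 had log2 fold changes of -0.10 and 0.12 per the authors' deposited table. Zmat4 was below the minimum level, and Zmat1 shares its row with another gene. Of the exonuclease genes related to Aen, Isg20l2, Rexo4 and Rexo1 had log2 fold changes of 0.17, 0.15 and 0.22 per the authors' deposited table, and Isg20 was below the minimum level.

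Perp was the exception among the 10. It encodes a membrane protein of the PMP22 and claudin-like family that is a target of p53 in dying cells, and of the related factor p63 in stratified epithelia, where it is part of desmosomes. The gene is located on chromosome 10 (18845020 to 18857073, plus strand). Its level was 20.7 FPKM in Prmt5cKO and 21.0 FPKM in Control, a log2 fold change of -0.03 (q = 0.930) per the authors' deposited table. The sign turned to 0.10 when the median ratio of all genes was set to 1 and to 0.06 after quantile normalization, so no direction is given. Without replicate values no interval can be set around this ratio. In Control its level was second only to Bax among the 10, and in Prmt5cKO it lay below Bax, Phlda3, Aen and Pmaip1.

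Genes of the cells in which Perp is best known were read beside it. Trp63, which encodes p63, was at 11.3 FPKM in Prmt5cKO and 10.5 FPKM in Control and missed the threshold. Of 12 markers of surface ectoderm 2 rose, 1 fell and 9 missed the threshold, with a median log2 fold change of 0.02 per the authors' deposited table; most tested rows of the whole table also missed it, with 4.90% rising and 19.3% falling. Their summed level was 186 FPKM in Prmt5cKO and 192 FPKM in Control. Epcam and Tfap2a rose by 0.18 and 0.55 (log2) per the authors' deposited table, and the keratin gene Krt15 fell by 0.70. Among 8 measured desmosome genes 1 fell, 6 missed the threshold and 1 (Pkp4) went untested. Dsp, which links desmosomes to keratin filaments, was the fall, by 0.20 (log2) per the authors' deposited table. Of 5 other genes of the PMP22 family Emp2 fell to 2.06 FPKM in Prmt5cKO, against 4.37 in Control. Pmp22, Emp1, Emp3 and Tmem47 missed the threshold, with log2 fold changes of -0.28, -0.25, 0.03 and -0.23 per the authors' deposited table. The part of Perp's cell types in its level was not tested.

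**Figure D2:**
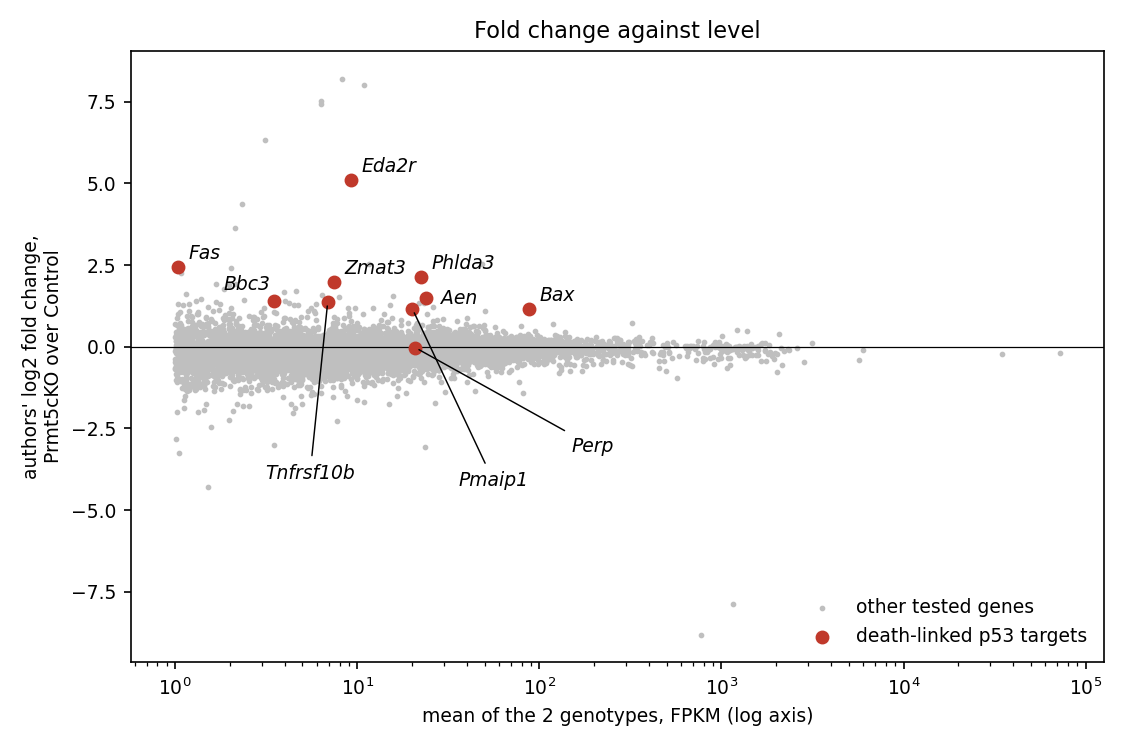
Log2 fold change of Prmt5cKO over Control per the authors' deposited table against the mean level of the genotypes in FPKM (log axis), with 1 grey point per tested gene and the 10 death-linked p53 targets in red. The 9 risen genes lie between 1.15 and 5.11 over levels from 1.04 to 87.4 FPKM, and Perp lies at -0.03.

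The 9 rises spanned the range of expression. All 9 ranked within the 100 largest folds of the 11190 tested rows, from rank 6 for Eda2r to rank 55 for Pmaip1; Fas and Eda2r are ranked among rows whose minimum level they met only through their Prmt5cKO value, so their ranks are a description. By gain in FPKM the order was different, with Bax at rank 20, Phlda3 at rank 54, Aen at rank 70 and Eda2r at rank 111. Fas, at rank 12 by fold, was at rank 1378 by gain in FPKM. Fas and Eda2r were both scarce in Control. Genes so scarce in Control pass the minimum mean level only with a higher Prmt5cKO value, although that level does not alter the fold itself.

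Other p53 targets were counted in 3 lists, beside the 4.90% of all tested rows that rose and the 19.3% that fell. Of 15 measured genes of arrest and feedback 8 rose, 1 (Sesn1) fell and 6 missed the threshold, with a median log2 fold change of 0.53, beside -0.13 over all tested rows, per the authors' deposited table. Cdkn1a, the inhibitor of cyclin-dependent kinases, was at 19.9 FPKM in Prmt5cKO and 3.45 FPKM in Control, Ccng1, a cyclin that feeds back on p53, at 82.2 FPKM in Prmt5cKO and 14.2 FPKM in Control, and Gtse1, a microtubule-bound protein, at 33.5 FPKM in Prmt5cKO and 13.2 FPKM in Control. Of 14 measured targets in repair, metabolism and other roles 5 rose (with Ercc5 and Aldh4a1), 3 fell (Fdxr, Ddb2 and Rrm2b) and 6 missed the threshold. The median log2 fold change of that list was -0.01 per the authors' deposited table. Ptprv, a receptor tyrosine phosphatase, Polk, a DNA polymerase that copies past lesions, and Psrc1, a spindle protein, rose by 3.64, 1.03 and 0.88 (log2) per the authors' deposited table. Of 9 further death-linked targets 1 rose, 1 fell, 6 missed the threshold and 1, Apaf1, went untested. Pidd1, a death domain protein that activates caspase-2, rose to 7.89 FPKM in Prmt5cKO, against 3.85 in Control. Thbs1, a matrix protein that inhibits vessel growth, fell by 0.41 (log2) per the authors' deposited table, and Igfbp3, which binds insulin-like growth factors, missed the threshold at -0.33.

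Among regulators of p53 the largest rise was 0.59 (log2), that of its own gene, per the authors' deposited table. Trp53, the gene of p53, was at 68.6 FPKM in Prmt5cKO and 45.5 FPKM in Control, and Mdm2 at 21.6 FPKM in Prmt5cKO and 16.7 FPKM in Control; both rose, by 0.59 and 0.37 (log2) per the authors' deposited table. Over all tested rows 4.90% rose and 19.3% fell. Of 15 measured regulators 3 rose (with Usp7), 4 fell (with Usp28 and Kat5), 5 missed the threshold and 3 (Atm, Ep300 and Trp53bp1) went untested. The falls included Prmt5 itself, at 12.5 FPKM in Prmt5cKO and 40.9 FPKM in Control, and the damage kinase gene Atr, which fell by 0.22 (log2) per the authors' deposited table. The FPKM of Prmt5 covers the whole gene and the whole limb, so it does not measure how completely the gene was deleted. Mdm4, the partner of Mdm2 in restraining p53, was at 24.9 FPKM in Prmt5cKO and 27.2 FPKM in Control and missed the threshold, and this table does not separate its isoforms.

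Genes of the execution machinery were counted in the same way. Of 14 measured genes of the apoptosome, caspases and their inhibitors 1 fell, 10 missed the threshold and 3 (Apaf1, Xiap and Birc2) went untested, with a median log2 fold change of -0.16, near the -0.13 of all tested rows, per the authors' deposited table. None of the 11 tested genes rose, which is near the 4.90% of all tested rows. The count of 0 rises rests on the adjusted values alone, since the tables hold no unadjusted p. Htra2, a mitochondrial protease, fell by 0.38 (log2) per the authors' deposited table. Cycs, the gene of cytochrome c, was at 50.6 FPKM in Prmt5cKO and 41.9 FPKM in Control and did not pass.

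**Figure D3:**
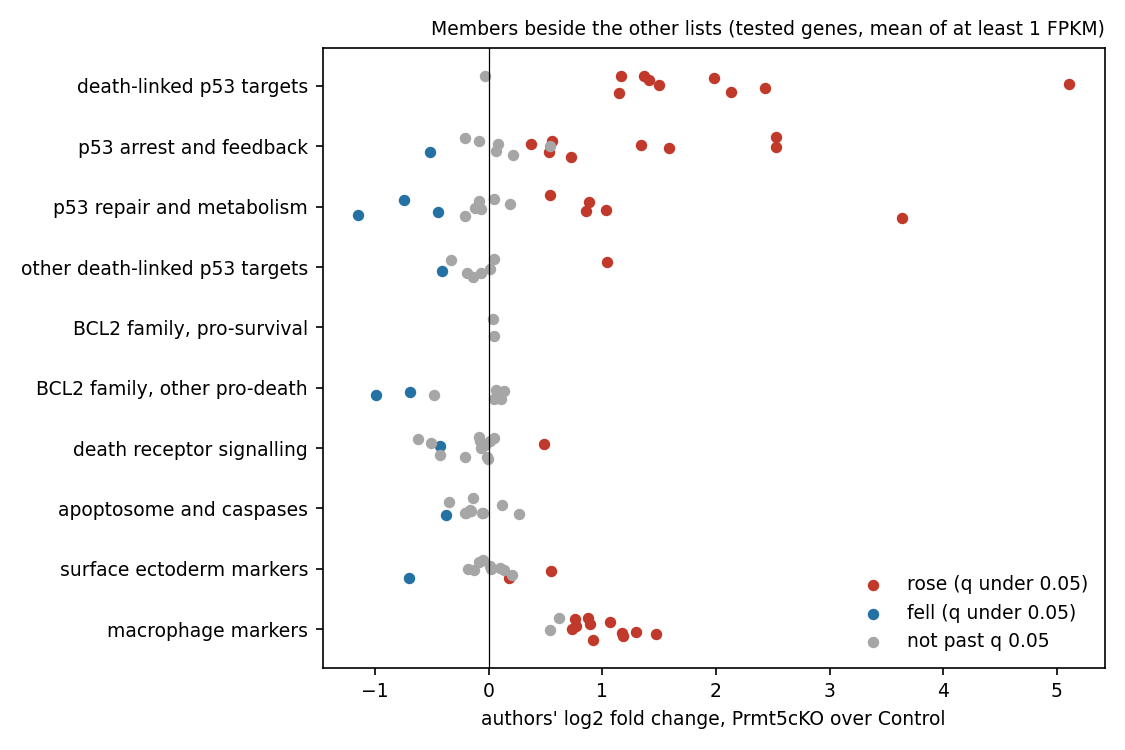
Log2 fold changes of Prmt5cKO over Control per the authors' deposited table, 1 point per tested gene with a mean of at least 1 FPKM, by list; red points rose and blue points fell at a q under 0.05, grey points missed the threshold. The death-linked p53 targets have 9 of 10 points in red, the apoptosome and caspases none, and the macrophage markers 11 of 13.

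Markers of other cells were read beside these results. Of all tested rows 4.90% rose and 19.3% fell. Of 13 macrophage markers 11 rose, none fell and 2 (Cx3cr1 and C1qa) missed the threshold, and their summed level was 79.5 FPKM in Prmt5cKO and 42.0 FPKM in Control. Csf1r, Emr1 and Stab1 rose by 0.73, 1.18 and 0.76 (log2) per the authors' deposited table. No macrophage marker was at 0 in either genotype, and their part in the rises of the death-linked genes was not tested. Of 9 measured mesenchymal markers of the limb bud none rose, 6 missed the threshold and 2 (Prrx1 and Lhx9) went untested. Twist2 was the 1 that fell, by 0.38 (log2) per the authors' deposited table. Their summed level was 523 FPKM in Prmt5cKO and 524 FPKM in Control. Tbx5, the defining factor of the forelimb, was present at 19.9 FPKM in Prmt5cKO and 23.0 FPKM in Control, and Prrx1 at 107 FPKM in Prmt5cKO and 122 FPKM in Control. None of the measured markers of endothelium (8), muscle (6), red cells (7) or nerve (2) rose. The muscle gene Pax3, below the minimum level and so not counted, was at 1.14 FPKM in Prmt5cKO and 0.525 FPKM in Control. Its log2 fold change was 1.11 (q = 0.00187) per the authors' deposited table. Beside the share of all tested rows that rose, a lack of rises in lists this small, mesenchyme included, is near the background. The falls were Erg and Cd34 for endothelium, Tnnt1 and Myh3 for muscle, Alas2 for red cells and Erbb3 for nerve, and Pecam1, Kdr and Slc4a1 went untested.

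The genes next to the 10 were read as well. For each of the 10, the nearest gene on either side with a mean of at least 1 FPKM and a symbol found in GENCODE was taken, 20 genes in all. None of these rose, 2 fell, 16 missed the threshold and 2, beside Zmat3, went untested; with 4.90% of all tested rows rising and 19.3% falling, these counts do not stand apart from the table. Rhobtb2 lies 579 bases beyond Tnfrsf10b and was at 3.79 FPKM in Prmt5cKO and 3.78 FPKM in Control. Ftl1, the ferritin light chain gene 1813 bases from Bax, was at 845 FPKM in Prmt5cKO and 884 FPKM in Control, and Sae1, a SUMO-activating enzyme gene 2029 bases from Bbc3, at 106 FPKM in Prmt5cKO and 95.8 FPKM in Control. The falls were Heph, which lies 759355 bases from Eda2r, and Tnni1, which lies 10298 bases from Phlda3, with log2 fold changes of -0.85 and -0.53 per the authors' deposited table. Bax, Bbc3 and Aen share chromosome 7 but lie far apart on it.

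**Figure D4:**
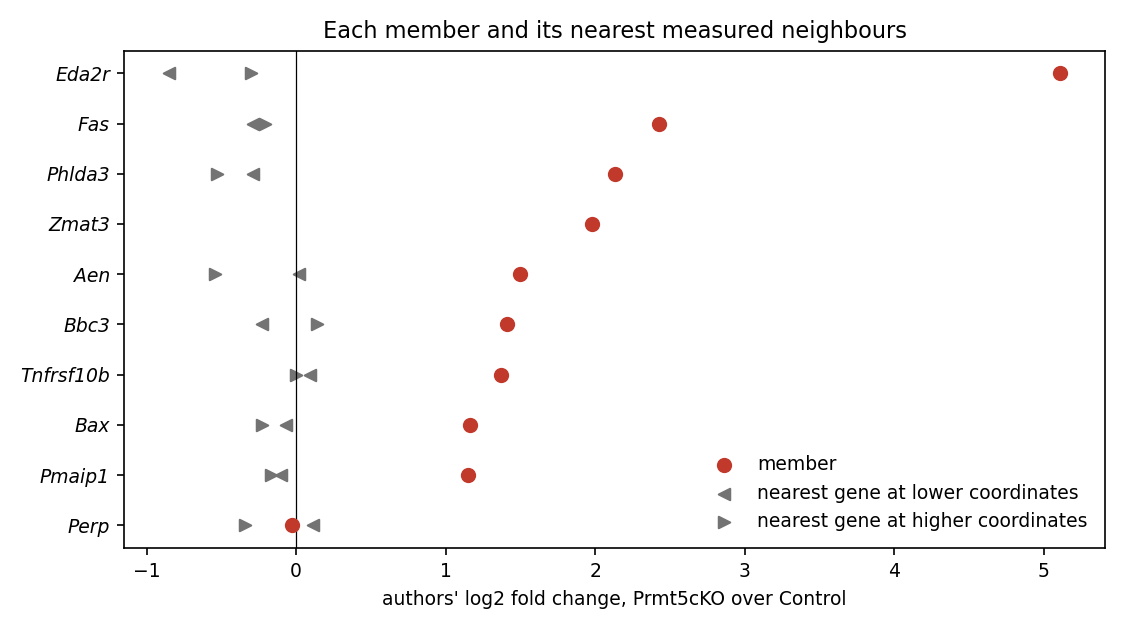
Log2 fold change of Prmt5cKO over Control per the authors' deposited table for each of the 10 genes (red circles) and for its nearest measured gene at lower and at higher coordinates (grey triangles), ordered by the fold of the member. The neighbours lie between -0.85 and 0.14, and those of Zmat3 are not drawn because the authors did not test them.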

How the data were processed

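Per the labels' protocols, TRIzol was used to extract total RNA from the 5 samples, for Illumina sequencing. Cufflinks 2.1.1, Bowtie2 2.1.0, TopHat2 2.0.10 and the assembly mm10 appear in the submitters' processing notes; the sources used here give neither their roles nor the annotation, the way of combining replicates or the test behind the q-values. Per the file headers, the authors deposited 1 FPKM per genotype, a q-value (an adjusted p-value) and the log2 fold change, Prmt5cKO over Control, for each of 28092 rows. The fold change was read as a score, since the deposited column writes a very large number for a ratio against 0. Leaving out rows read as not tested and rows at 0 FPKM in either genotype, it differed from the log2 FPKM ratio by at most 1.28e-05. A fold of 0 with a q of 1 and unequal FPKM was read as not tested. Rows without a gene name (15.5%, holding 2.08% of the FPKM in Prmt5cKO and 1.94% in Control) were left out.

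The q-values are the authors' own, and no p-value was computed here: with no value per sample in the tables, no fit could be run. Whether the q measures spread between animals or between technical samples is unknown. The members and the gene lists were chosen with earlier results of these data known. Named are all 10 members, the 3 genes of each list with the smallest q (ties by fold), and all genes of lists of 8 or fewer. For markers of endothelium, muscle, red cells, nerve and the Y chromosome counts or ranges stand in for single values, Pax3 excepted. Any other gene named was chosen after its values were seen. Some genes that the rule names are not reported here. Python 3.11.15 with pandas 2.3.3 was used, and the counting and the motif search were tested on simulated data. Promoter windows are RefSeq's, on GRCm38.p6.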

Additional observations from a re-analysis of the deposited data

How the results depend on the processing

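The 9 rises among the 10 genes were 8 at a q under 0.01 and 7 with a minimum mean of 5 FPKM. Of the 10 genes 8 reach that minimum, but Tnfrsf10b, Eda2r and Zmat3 do so only through their Prmt5cKO value. The count and the median at that minimum are therefore only a description. With no minimum level, at 1.5-fold and at 2-fold the rises stayed 9, and no member fell under any of these 5 alternatives. The median log2 fold change of the members was 1.16 with a pseudocount of 1 FPKM, 1.43 with 0.1 FPKM, 1.59 with the median ratio of all genes set to 1, 1.60 after quantile normalization and 1.43 with a minimum mean of 5 FPKM. Under those 4 scalings 38 of 40 member values kept their sign; the exceptions were Perp at 0.10 and 0.06, named above, and the lowest value of a risen gene was 1.05 (Fas, pseudocount of 1 FPKM). Across all named rows, the rises numbered 361 at a q under 0.01, 180 at 1.5-fold and 68 at 2-fold, against 548. The falls numbered 1524 at a q under 0.01, 759 at 1.5-fold and 164 at 2-fold, against 2161. In the other lists together 29 genes rose at a q under 0.01, against 34, and 22 fell, against 25. No paired analysis was possible because the tables give no value per sample; for the same reason leaving out each replicate was not run. No member has a further row, so that alternative gave no value. Depth is unknown, so low genes such as Fas carry an error that cannot be stated.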

Other observations

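A shorter deposited table holds 208 rows, beside 28092 in the full table. Of these 208, 62 have a positive and 146 a negative log2 fold change, and 8 of the 10 death-linked genes are among them. No gene in it is under 2-fold, and its largest q is 0.00958. Being listed there thus adds no evidence beyond the folds and q-values already given. Fas is outside it with a larger fold but q = 0.0203 per the authors' deposited table, and Perp is outside it by both its fold and its q.

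Transcript length differs among the members. The longest annotated transcript spans 1100 bases for Bax and 7797 bases for Zmat3, with a median of 2339.5 bases over the 10 genes, beside 3416 bases over 11145 measured genes with a GENCODE match.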
